A study of Arabidopsis thaliana with 12 samples.

Results

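This account concerns 5 nuclear genes for proteins of the plastid ribosome in Arabidopsis thaliana, ecotype Columbia-0, a wild-type line of thale cress widely used in the laboratory. They were chosen by name, with earlier results of these data known. AT4G01310 encodes protein L5, AT3G54210 encodes L17, AT5G65220 encodes L29 and AT1G29070 encodes L34, all of the large subunit, and AT1G64510 encodes a small-subunit protein of the S6 family. Each had 1 probe that the platform annotation assigns to it alone, so the 5 genes stand among 691 genes with such a probe. The arrays carried 3439 probes in all, of which 692 had 1 gene, 870 had several and 1877 had none.

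Total RNA was measured from 6 samples of wild-type plants grown at high iron, which the labels call oxidative stress, and from 6 samples of wild-type plants grown at normal iron, called control here, whose titles carry the word H2O. Neither the labels nor the files name the tissue, the age of the plants, the iron dose or the time. The question is whether transcripts of the plastid ribosome differ under excess iron and whether its subunits move together. The labels do not name separate plants or cultures, so every p-value rests on a spread between samples that may be technical.

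Plastids keep a ribosome of bacterial type that translates the plastid genome, including core subunits of both photosystems and the large subunit of Rubisco. Part of its proteins are encoded in the plastid and part in the nucleus, and the nuclear ones are made in the cytosol and imported. A working ribosome needs both subunits, so many separately encoded proteins come together in the same organelle. Iron matters to plastids because the photosynthetic electron transport chain holds iron-sulphur clusters and haem, and free iron promotes the formation of reactive oxygen.

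At high iron the S6 transcript (AT1G64510) was higher relative to the rest of its array, and the L34 transcript (AT1G29070) was lower. L5 (AT4G01310) and L17 (AT3G54210) did not pass the test after normalization, and L29 (AT5G65220) gave no usable signal. S6 rose 1.65-fold over 12 samples (log2 change 0.72, SE 0.10, n = 6 per group, limma adjusted p = 0.000269). Its call ended over averages of like samples (limma adjusted p = 0.0611). It also ended on the deposited values without further normalization (log2 change 0.14, limma adjusted p = 0.377), both given below. L34 fell by 0.75 on the log2 scale (SE 0.26, limma adjusted p = 0.0458), a call that ended in most alternative fits given below. Of the 4 genes with a signal, 1 rose, 1 fell and 2 did not pass. Over all probes, 18.2% were called higher and 15.2% lower, so 1 call in each direction lies near the background and says nothing particular about these genes.

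These values come from quantile-normalized intensities on the log2 scale, with a lower limit (floor) at 0.106, or -3.24 in log2. The scaling matters here. The array medians lay between 0.352 and 0.446 at high iron and between 0.555 and 0.618 in control, and on the deposited scale the median log2 change of all probes was -0.40. The array means were nearly equal, from 0.978 to 1.03 at high iron and from 1.01 to 1.04 in control. The lower medians are thus a difference in the spread of intensities over probes, not in their mean. The samples of a group formed 3 sets, 1 with 2, 3 with 4 and 5 with 6, whose deviations from the group mean correlated from 0.56 to 0.82 over probes, against -0.70 to -0.25 between sets. Results are therefore also given over the 6 averages of these sets, 3 per group, where 2.38% of probes were called. In limma 0 of the 5 genes passed there, and S6 alone was at an unadjusted p under 0.05. Each SE over 12 samples treats samples of the same set as if they were independent. Between 123 and 145 values were 0 on each array, except on high iron arrays 3 and 4 with 278 and 271. Among markers of green tissue 6 of 9 had a probe of their own, and their summed deposited intensity was 40.4 to 55.8 at high iron and 25.5 to 34.2 in control, most of it from PSBW, a photosystem II subunit. After quantile normalization 1 of the 6 rose and 5 did not pass. Between 99.6% and 99.7% of probes were dimmer than PSBW in the mean of either group, and PRK went the other way on the deposited scale, at 0.564 at high iron and 0.649 in control. Of the 3 root markers 0 had such a probe. In bulk RNA, fewer cells of a type and less RNA per cell cannot be told apart. The part of tissue composition in the results was not tested.

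**Figure D1:**
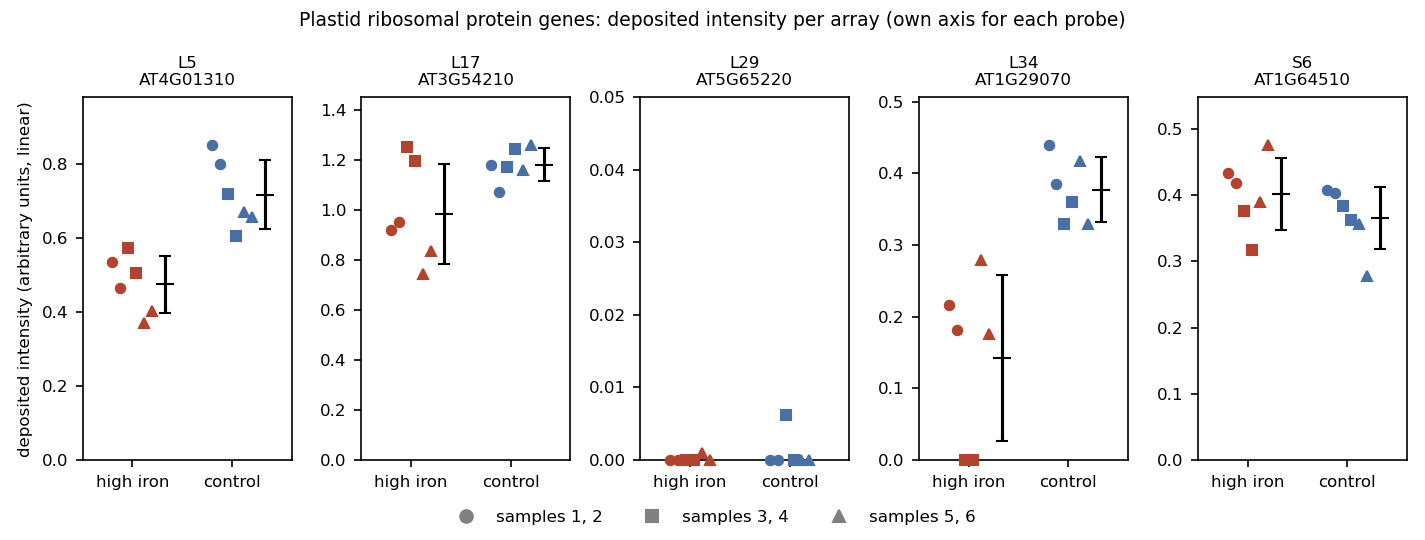
Deposited intensity (arbitrary linear units, own axis for each probe) of the 5 genes, with 1 point per array, high iron left and control right, and bars for the mean ± SD of 6 arrays (not drawn for L29, which is at 0 on most arrays). S6 overlaps between the groups, and L34 is at 0 on high iron arrays 3 and 4. L5 and L34 are lower on all 6 high iron arrays than on any control array, as are 27.4% of all probes.

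In bacteria S6 binds the platform of the small subunit together with S18. The deposited intensities of AT1G64510 in samples 1 to 6 were 0.433, 0.419, 0.376, 0.317, 0.390 and 0.476 at high iron. They were 0.408, 0.404, 0.384, 0.362, 0.357 and 0.279 in control. On this scale the groups overlapped, with means of 0.402 ± 0.055 at high iron and 0.366 ± 0.047 in control (SD, n = 6 each), and the log2 change of 0.14 did not pass (SE 0.12, limma adjusted p = 0.377). The other probes of the same arrays were mostly dimmer at high iron, so S6 took a higher place among them. After quantile normalization its log2 level was -1.03 ± 0.12 at high iron and -1.75 ± 0.18 in control (SD, n = 6 each), and the groups did not overlap. Groups apart in this direction were found for 9.77% of all probes.

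The place of a probe among all probes of its own array does not depend on how the arrays are scaled. For S6, between 42.7% and 53.7% of probes were dimmer on the high iron arrays, with a median of 51.4%. On the control arrays between 18.8% and 31.1% were dimmer, with a median of 26.4%. The probe thus stood near the middle of the array at high iron and in the lower part in control, with no overlap. Ranks that were higher on all high iron arrays than on any control array were found for 9.89% of all probes. As its groups did not overlap, S6 necessarily stood higher at high iron in 6 of 6 same-numbered pairs. It did so by 25.1, 19.5 and 25.6 percentage points in the sets 1 to 3.

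**Figure D2:**
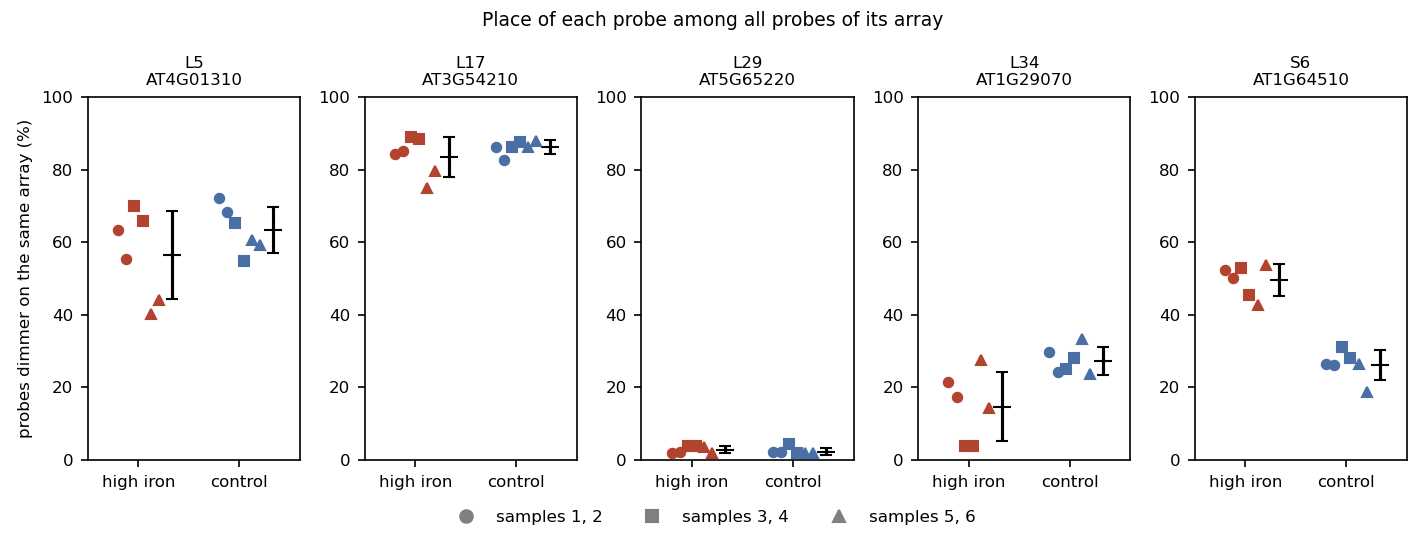
Place of each probe within its own array, as the percentage of the 3439 probes that were dimmer, with 1 point per array, high iron left and control right, and bars for the mean ± SD of 6 arrays. S6 lies at 42.7% to 53.7% at high iron and at 18.8% to 31.1% in control, while the other 4 probes overlap.

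The log2 change of S6 was 0.75, 0.57 and 0.84 in the sets 1 to 3 after quantile normalization. After median scaling it was 0.64, 0.54 and 0.80, and with deposited values 0.07, -0.11 and 0.45. All 3 sets therefore gave a higher value under both normalizations, and 2 of 3 did with deposited values. Over the 6 averages of sets the call ended (SE 0.14, limma adjusted p = 0.0611), and also when those averages were blocked by number (0.0876). It held with the set as a random block (limma adjusted p = 0.0326), where 8.23% of probes were called higher, and with all 12 samples blocked by replicate number (0.00298), where 22.1% were. It also held in 12 of 12 fits that left out 1 sample.

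L34 is a small protein of the large subunit. The deposited intensities of AT1G29070 in samples 1 to 6 were 0.217, 0.182, 0, 0, 0.280 and 0.176 at high iron. They were 0.440, 0.386, 0.329, 0.361, 0.418 and 0.330 in control. All 6 high iron values lay below all control values on the deposited scale, as did those of 27.4% of all probes. After quantile normalization the groups overlapped, because high iron sample 5 (-1.69) stood above 3 of the 6 control samples, which ranged from -1.85 to -1.49. High iron was lower in 6 of 6 same-numbered pairs.

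The size of the fall in L34 rests on high iron samples 3 and 4, which are listed at 0 and lie on the floor. The log2 change was -0.35, -1.51 and -0.38 in the sets 1 to 3 after quantile normalization, and -0.48, -1.34 and -0.40 after median scaling. Without these 2 arrays the change was -0.35 (SE 0.14) and did not pass (limma adjusted p = 0.0790). It did not pass over the 6 averages (limma adjusted p = 0.258), with the set as a random block (0.231), with deposited zeros counted as missing (-0.35, 0.120) or in 10 of 12 fits that left out 1 sample. Over 12 samples it passed after median scaling (limma adjusted p = 0.0226) and with the replicate number as a block (0.0386). It also passed with a floor at the 10th percentile (limma adjusted p = 0.0179) and with a weight for each array (0.0348). With the deposited values the fall was larger, at -1.15 (SE 0.22, limma adjusted p = 0.0014), and over the averages of these its adjusted p was 0.0572. In rank terms between 3.93% and 27.5% of probes were dimmer than L34 at high iron, with a median of 15.8%, and between 23.6% and 33.4% in control, with a median of 26.5%. The 2 lowest ranks at high iron are those of samples 3 and 4, the arrays with the most zeros, whose part in the fall was not tested.

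L5 contacts the 5S ribosomal RNA in the central protuberance of the large subunit in bacteria. The deposited intensities of AT4G01310 in samples 1 to 6 were 0.536, 0.465, 0.573, 0.507, 0.372 and 0.403 at high iron. They were 0.854, 0.801, 0.720, 0.607, 0.672 and 0.657 in control. Every high iron value lay below every control value on this scale, as did those of 27.4% of all probes. The log2 change of -0.60 passed (SE 0.13, limma adjusted p = 0.00233), in a fit that called 46.6% of all probes lower. Over the 6 averages of deposited values it did not pass (limma adjusted p = 0.0863). After quantile normalization the change was -0.18 (SE 0.14, limma adjusted p = 0.358) and after median scaling -0.08. By set it was -0.29, 0.20 and -0.46, so samples 3 and 4 went the other way. Without high iron samples 3 and 4 it was -0.33 (SE 0.13) and did not pass (limma adjusted p = 0.0952). Between 40.2% and 70.0% of probes were dimmer than L5 at high iron and between 54.9% and 72.2% in control, so the ranks overlapped.

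L17 lies near the exit of the peptide tunnel of the large subunit in bacteria. The deposited intensities of AT3G54210 in samples 1 to 6 were 0.921, 0.955, 1.25, 1.20, 0.744 and 0.838 at high iron. They were 1.18, 1.07, 1.18, 1.25, 1.16 and 1.26 in control. The high iron samples were more spread, with an SD of 0.201 against 0.068 in control, and the groups overlapped. The log2 change was -0.11 (SE 0.12, limma adjusted p = 0.492) after quantile normalization, 0.24 after median scaling and -0.29 with deposited values (0.0599), so its direction depended on the scaling. By set it was 0.00, 0.13 and -0.47 after quantile normalization, and without high iron samples 3 and 4 it was -0.26 over the rest (SE 0.09, limma adjusted p = 0.0643). The place of the probe was 75.0% to 89.1% at high iron and 82.7% to 88.0% in control.

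L29 also lies beside the tunnel exit in bacteria. The probe of AT5G65220 was listed at 0 on 5 of 6 high iron arrays and on 5 of 6 control arrays. The remaining values were 0.00102 in high iron sample 5 and 0.00615 in control sample 3, both far below the floor. No change can be given for it. At the floor on all 12 arrays were 145 probes, of which L29 was 1.

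**Figure D3:**
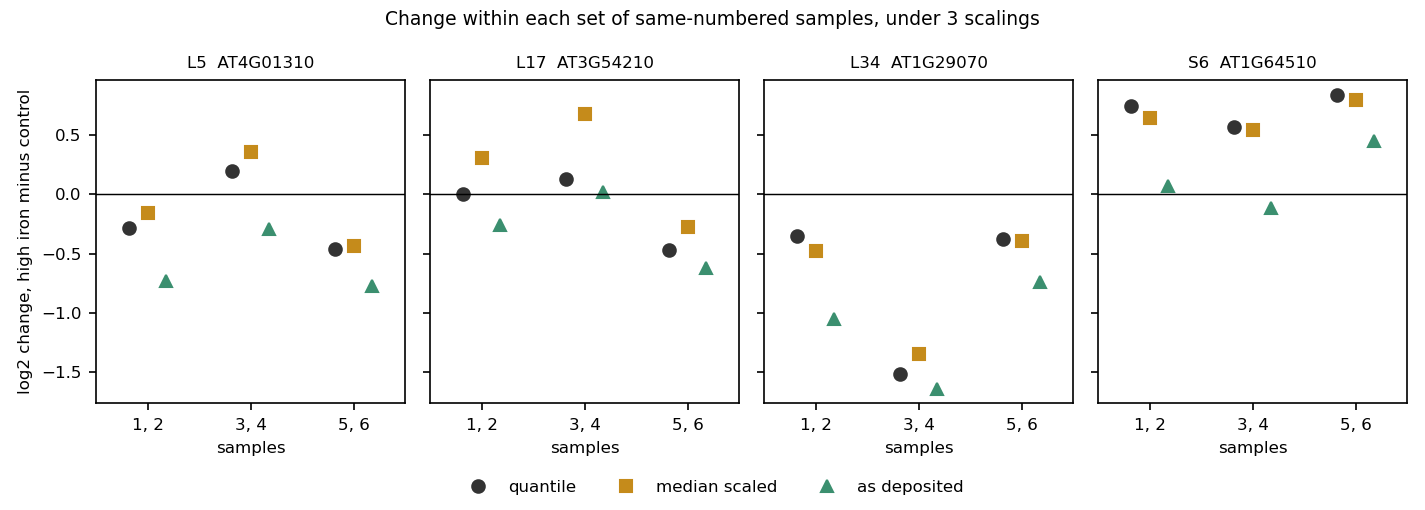
Log2 change (high iron minus control) of the 4 measured genes in each set of same-numbered samples, after quantile normalization, after median scaling and with deposited values. S6 is above 0 in all 3 sets under both normalizations, L34 is below 0 in all sets with its largest fall in samples 3 and 4, and L5 and L17 change sign between sets under both normalizations.

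Of 41 nuclear genes listed for plastid ribosomal proteins, 6 had a probe of their own, the 5 above and AT3G13120, which encodes S10, a protein of the head of the small subunit. Without L29, 1 of 5 rose, 1 fell and 3 did not pass, beside 18.2% of all probes called higher and 15.2% called lower. Their median log2 change was -0.18, against 0.00 over all probes. The deposited intensities of S10 in samples 1 to 6 were 0.519, 0.566, 0.197, 0.248, 0.549 and 0.508 at high iron. They were 0.606, 0.642, 0.782, 0.767, 0.674 and 0.685 in control. High iron samples 3 and 4 were the lowest, as for L34. Its log2 change was -0.23 (SE 0.18, limma adjusted p = 0.372), with 0.34, -0.98 and -0.05 in the sets 1 to 3, and 0.03 without those 2 arrays. With deposited values it was -0.79 (SE 0.27, limma adjusted p = 0.0267), in a fit that called 46.6% of all probes lower. That change did not pass over the 6 averages of deposited values (limma adjusted p = 0.194) or with their replicate block (limma adjusted p = 0.056). Whether S10 and S6 differ in their change was not tested. None of the 11 listed plastid translation factors had a probe of its own, and 4 probes were shared with other genes and were not used.

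Whether the subunits move unequally was tested within arrays, as the log2 difference between probes of the same array. Brightening or dimming a whole array does not change this difference unless a value lies at the floor, as that of L34 does in high iron samples 3 and 4. The differences from L34 in those samples are therefore lower bounds. All 6 pairs of the 4 measured genes were compared on deposited values with an exact two-sided permutation test over 12 samples, where 0.00216 is the smallest p possible, and adjusted over the 6 pairs. The genes were picked with earlier results in view, so these p-values describe the pairs and are not independent evidence. Only the change between groups can be read, since the brightness of different probes cannot be compared.

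S6 minus L34 was 1.0, 1.21, at least 1.76, at least 1.52, 0.48 and 1.44 in high iron samples 1 to 6, and -0.11, 0.07, 0.22, 0.01, -0.23 and -0.24 in control samples 1 to 6. The groups did not overlap, and S6 changed by at least 1.28 more than L34 on the log2 scale (exact permutation p = 0.00216, adjusted 0.00649). After median scaling, which moves these bounds, the value was at least 1.40. Without high iron samples 3 and 4, and so with no value at the floor, it was 1.08 (exact permutation p = 0.00952, adjusted 0.0190). S6 minus L5 was -0.31, -0.15, -0.61, -0.68, 0.07 and 0.24 in high iron samples 1 to 6, and -1.07, -0.99, -0.91, -0.75, -0.91 and -1.24 in control samples 1 to 6. These groups did not overlap either, and the change was 0.74 (exact permutation p = 0.00216, adjusted 0.00649). The share of all probe pairs that separate in this way was not counted, so neither separation can be called particular to these genes. Because the groups did not overlap, both differences were bound to be higher in 6 of 6 same-numbered pairs. The separation also fixes p at its smallest possible value in the tests given next. With the replicate number as a block (exact sign-flip test over 6 pairs, smallest p 0.0312) both had an adjusted p of 0.0625, and over the 6 averages both had an exact permutation p of 0.10, the smallest possible there.

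S6 changed by 0.42 more than L17 (exact permutation p = 0.0736, adjusted 0.0883), and by 0.83 more after quantile normalization (exact permutation p = 0.00216, adjusted 0.00433). The call for this pair thus depended on the scaling. With high iron samples 3 and 4 left out the value was 0.70 (exact permutation p = 0.00952, adjusted 0.0190). L5 minus L17 changed by -0.31 (exact permutation p = 0.0238, adjusted 0.0390) and by -0.07 after quantile normalization (exact permutation p = 0.539). L17 minus L34 changed by at least 0.86 (exact permutation p = 0.0260, adjusted 0.0390), by 0.38 without high iron samples 3 and 4 (exact permutation p = 0.114) and by at least 0.63 after quantile normalization (exact permutation p = 0.143). L5 minus L17 was lower in 6 of 6 same-numbered pairs, and its p in the exact sign-flip test was 0.0312, the smallest that 6 pairs allow (adjusted 0.0625). L17 minus L34 was higher in 5 of 6 (exact sign-flip p = 0.0625, adjusted 0.0938). L5 minus L34 changed by at least 0.54 (exact permutation p = 0.115). No unequal change held under every alternative, in pairs with S6 or without it. Over the 6 averages none could pass, as the smallest exact permutation p there was 0.10.

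**Figure D4:**
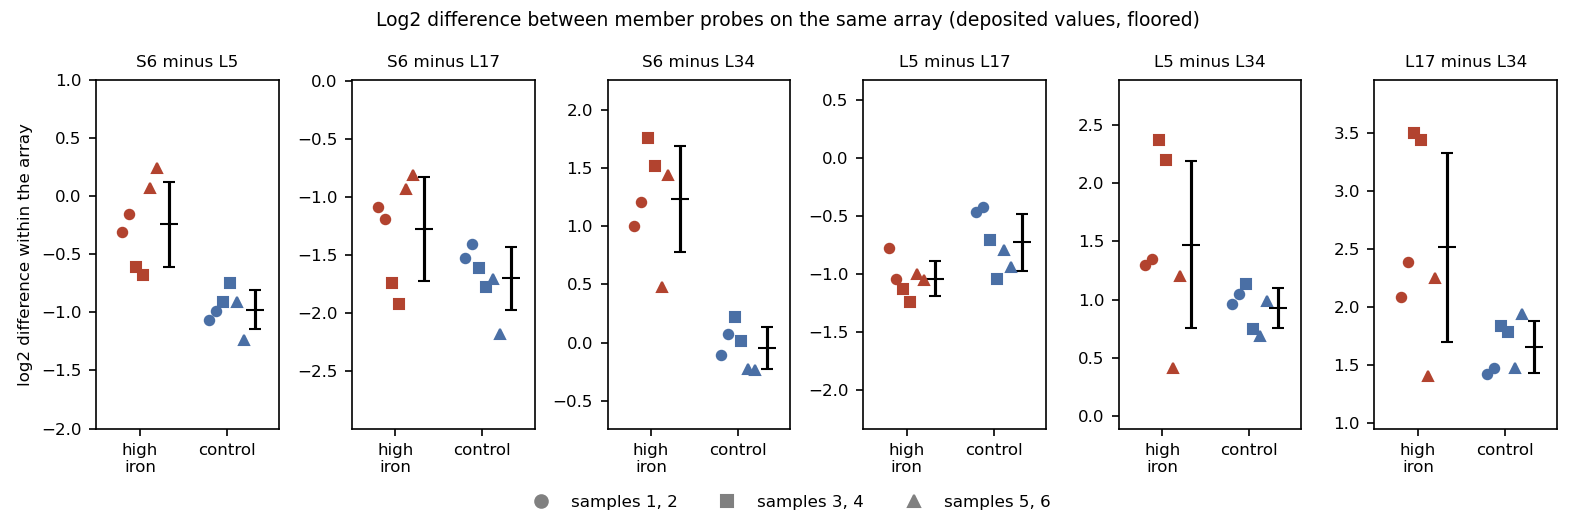
Log2 difference between member probes on the same array (deposited values with the floor), for the 6 pairs, with 1 point per array, high iron left and control right, and bars for the mean ± SD of 6 arrays. Points that involve L34 in high iron samples 3 and 4 are lower bounds. S6 minus L5 and S6 minus L34 are higher on all high iron arrays than on any control array, and the other 4 pairs overlap. The share of all probe pairs that separate in this way was not counted.

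Column by column, the genes followed different sets of arrays within the high iron group. L5 and L17 both stood above their group mean in high iron samples 3 and 4, by 0.35 and 0.23 for L5 and by 0.31 and 0.27 for L17. Both stood below it in samples 5 and 6, by -0.43 and -0.31 for L5 and by -0.38 and -0.23 for L17. L34 went the other way, at -0.79 in both samples 3 and 4, which is the floor, and at 0.76 in sample 5. S10 stood at -0.62 and -0.41 in samples 3 and 4 and between 0.15 and 0.36 in the other 4. S6 deviated by 0.18 or less in all 6 high iron samples. Because samples of a set go together, these are 3 sets rather than 6 separate observations, and no correlation is given.

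In the control group the deviations were small, with S6 at -0.34 in sample 6 and S10 at -0.30 in sample 1 as the lowest. Counting the columns in which 2 genes lay on the same side of their group means, L34 and S10 did so in 9 of 12, with 6 of 6 at high iron and 3 of 6 in control. L34 and S6 shared a side in 8, L5 and L17 in 6, and L5 with L34 and L17 with L34 in 3 each. L5 and S10 shared a side in 2 of 12. Over all 198135 pairs of single-gene probes the median was 6 of 12 columns, with quartiles of 4 and 8. L5 and L17 thus lay at the median by this count, and their 4 shared columns at high iron are samples 3 to 6.

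**Figure D5:**
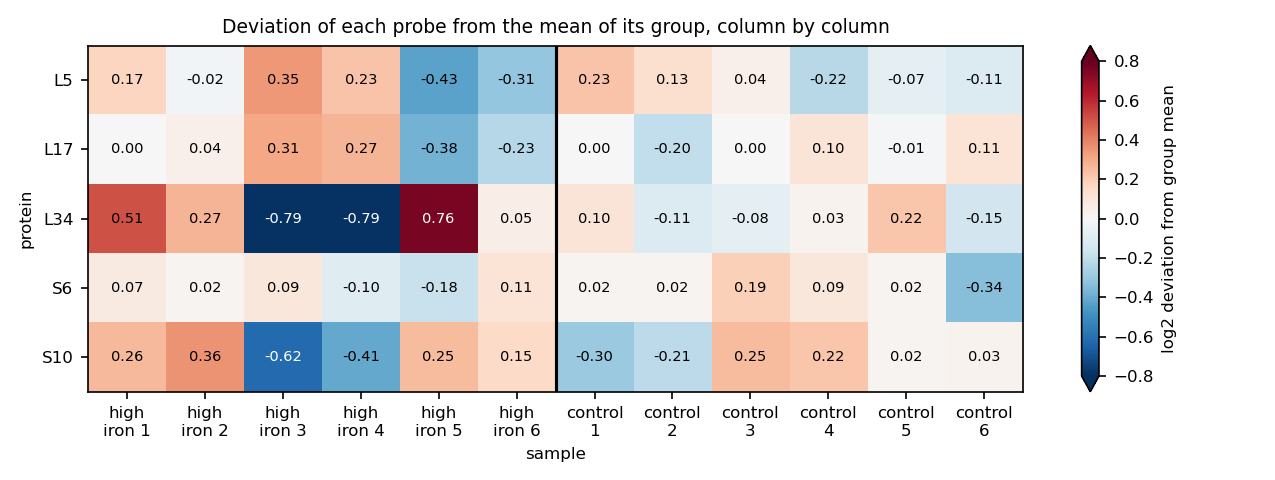
Deviation (log2, after quantile normalization) of each probe from the mean of its group in every column, with the 6 high iron samples left of the line and the 6 control samples right of it. L5 and L17 are high in high iron samples 3 and 4, where L34 and S10 are low, and S6 varies little there.

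The likeness of whole patterns was measured as the root-mean-square difference between probes over the 12 columns, after each probe was centred on its own mean, among 630 single-gene probes at the floor in no more than 3 columns. For S6 the closest were AT1G56460 at 0.15 and AT4G13220 at 0.16 log2 units, against a median of 0.48 over the probes. These genes rose by 0.68 (SE 0.09) and 0.63 (SE 0.05). The measure includes the change between the groups, so like changes in the nearest genes follow from how they were picked. For L34 the closest were AT2G38950 at 0.20 and AT4G07670 at 0.21, against a median of 0.64. The changes of these were -0.70 (SE 0.30, limma adjusted p = 0.102) and -0.86 (SE 0.25, limma adjusted p = 0.0195). For L5 the closest were AT2G43990 and AT2G42490, both at 0.15 against a median of 0.41. For L17 they were AT4G16490 at 0.13 and AT2G43990 at 0.14 against a median of 0.38.

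Among the ribosomal genes themselves, L5 and L17 were close by this measure, at 0.18 log2 units, which placed L17 8th among the probes nearest to L5 and L5 11th among those nearest to L17. S10 was 25th among the probes nearest to L34, at 0.38. From S6, L17 was at place 307 and L5 at place 350, with distances of 0.48 and 0.51 near the median of 0.48, while S10 was at 420 and L34, at 0.87, at 594. Here too the measure includes the change between the groups.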

How the data were processed

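For every array the authors deposited 1 linear intensity a probe, from 0 to 100. No label or header tells how arrays were scanned, background-corrected or scaled, which leaves unit and centring open, and there were no detection calls to use. The number of arrays limits the precision, as do the likeness of samples within a set, the floor and the scaling. Genes were named from the platform annotation with symbols looked up in the TAIR10.1 gene table, where gene numbers matched for 690 of 692 single-gene probes. No coordinates are given because no build is named.

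Arrays were quantile normalized (the medians differed up to 1.76-fold), given a floor at the 5th percentile of positive values and log2-transformed. The floor makes changes of dim probes look smaller. All 3439 probes were tested with limma 3.58.1 (lmFit, eBayes with a trend, two-sided) in R 4.3.3 on 12 unpaired samples, with Benjamini-Hochberg adjustment and a threshold of 0.05. The fit was run on simulated data in which all samples were independent. The simulation did not include the sets of like samples seen here, so it cannot tell how reliable the calls over 12 samples are. Exact permutation tests used scipy 1.17.1. The random block used statmod 1.5.0 (correlation 0.774). On the deposited scale the floor was 0.111.

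Same-numbered samples of the 2 groups deviated together, with correlations from 0.13 to 0.52. This comes from the data, not the labels. Samples of different numbers were not compared across the groups. Whether samples pair by number, or only by set, was therefore not tested.

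The genes named were the 5 members, other listed plastid ribosomal and translation genes with a probe of their own, and the 2 nearest patterns of each measured member. The members and lists were chosen with earlier results of these data known.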

Additional observations from a re-analysis of the deposited data

Results flagged for a closer look

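In AT1G64510 (S6), control sample 6 stood apart from the other 5 control samples after normalization, at a log2 level of -2.09. Its gap to the nearest control value was 0.670 of the whole range. Without it the rise of S6 was 0.65. In AT3G54210 (L17), control sample 2 stood apart in rank, with 82.7% of probes dimmer and a gap of 0.670 of the range. This was looked for in 30 groups of 6 values and found in 2. For independent values chance gives about 1 in 20. Samples of the same set were alike and the groups came from the same arrays, so that rate is only a rough guide here.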

How the results depend on the processing

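Over all probes 1149 passed. The count was 1892 with deposited values (2124 with the replicate block), 491 with the set as a random block, 82 over 6 averages, 1 with the replicate block over these, and 449 and 259 over averages of deposited and of median-scaled values. It was 1000 to 1172 with 1 sample left out. S6 (AT1G64510) stood at 0.72 and did not pass over 6 averages, with or without the replicate block, or over averages after median scaling (0.66), nor at 0.14 with deposited values, over their averages or with their replicate block. With 1 sample left out it was 0.65 to 0.76. L34 (AT1G29070) stood at -0.75 and did not pass over 6 averages, with or without the replicate block, or with the set as a random block. Nor did it pass at -0.35 with zeros missing or without high iron samples 3 and 4, at -0.95, -0.37 and -0.93 without samples 1 and 2, 3 and 4 or 5 and 6 of both groups, or over averages of deposited (-1.15) or median-scaled (-0.74) values. With 1 sample left out it was -0.90 to -0.59. L5 (AT4G01310) passed at -0.60 with deposited values, with or without the replicate block, and was -0.25 to -0.10 with 1 sample left out. L17 (AT3G54210) stood at 0.24 after median scaling, over 12 samples and over averages, and at 0.065 without samples 5 and 6 of both groups; with 1 sample left out it was -0.17 to -0.04. L29 (AT5G65220) stayed at 0. L29 and L34 were not tested without the dimmest 25 percent of probes, nor L29 with zeros missing.

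Of the pairs, S6 against L34 was at least 1.28 and S6 against L5 was 0.74. Neither passed over 6 averages or in the sign-flip test with the replicate block. With 1 sample left out they were 1.18 to 1.43 and 0.64 to 0.83, and passed in 12 of 12 fits each. As their groups did not overlap, that count was fixed in advance. S6 against L17 passed after quantile normalization (0.83) and without high iron samples 3 and 4 (0.70), and was 0.33 to 0.55 with 1 sample left out. L5 against L17 (-0.31) and L17 against L34 (0.86) did not pass over 6 averages, in the sign-flip test, after quantile normalization (-0.069 and 0.63) or without high iron samples 3 and 4 (-0.24 and 0.38). With 1 sample left out they were -0.37 to -0.25 and 0.66 to 1.08, passing in 4 and 2 of 12 fits, and L5 against L34 was 0.36 to 0.76, passing in 1. The fits over averages hold fewer samples; the other causes were not tested. The averages under other scalings and the deposited values with the replicate block were added after seeing the data, as were the ranks.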
